A study of Mus musculus with 4 samples.

Results

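The transcripts described here encode cyclic AMP-dependent protein kinase (protein kinase A, PKA) and its inhibitor peptides. They are 9 of the 53379 genes in the deposited table, taken by gene symbol: the inhibitors Pkia, Pkib and Pkig, the catalytic subunits Prkaca and Prkacb, and the regulatory subunits Prkar1a, Prkar1b, Prkar2a and Prkar2b. They were chosen by their role and selected on the FPKM of these same 4 libraries, with the difference between antibodies in view. Their values are therefore given as a description, with no p-value.

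RNA was immunoprecipitated with anti-Cpeb4 or with the control antibody, anti-IgG, from lysates of the ventricular-subventricular zone (V-SVZ), the stem cell niche beside the lateral ventricles. The tissue was taken from CD1 animals of wild-type genotype aged 7 or 8 days (P7/P8), and both antibodies were used in each of 2 experiments, which gave 2 libraries per antibody. Cpeb4 is an RNA-binding protein that acts on cytoplasmic polyadenylation and translation of its target mRNAs. The labels do not say whether the experiments used separate animals or pools of them, so the spread between libraries may be technical. Values are FPKM as computed by the authors, a level that accounts for gene length and divides reads by a size factor per library. Size factors were 1.18 and 0.76 for the Cpeb4 libraries of experiments 1 and 2, and 1.11 and 1.04 for IgG. Reads on genes numbered 35037171 and 24483742 for Cpeb4 and 24094241 and 22486721 for IgG, so the size factors did not follow the read totals. Relative to read totals, the authors' scaling set both Cpeb4 libraries higher against IgG. All 10 V-SVZ neuroblast and stem cell markers examined were detected.

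In the inactive kinase, regulatory subunits hold the catalytic subunits, and cyclic AMP binding to the regulatory subunits frees them to phosphorylate their substrates. Regulatory subunits of type I (Prkar1a, Prkar1b) are largely cytosolic, while those of type II (Prkar2a, Prkar2b) are mostly tethered by A-kinase anchoring proteins. The inhibitor peptides bind the free catalytic subunit as pseudosubstrates and carry it out of the nucleus. In the brain the kinase phosphorylates Creb1, a transcription factor that supports survival of newborn neurons, and restrains Hedgehog signalling.

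The isoforms of a kind differed in how far above IgG they stood in the Cpeb4 immunoprecipitates. The margin was wide for the inhibitors and narrow for the catalytic subunits (0.29 in experiment 1 and 0.81 in experiment 2 on the log2 scale). Pkia, Prkar2b, Prkar1a and Prkacb were 5.54-, 3.71-, 2.62- and 2.25-fold above IgG on the FPKM + 1 scale. Their partners Prkar2a, Prkaca and Prkar1b were 2.07-, 1.53- and 1.21-fold above it, and Pkig and Pkib were near the IgG level. Both Cpeb4 libraries lay above both IgG libraries for 7 of the 9 transcripts and below both for 0, and for 2 the groups overlapped. Over all 15745 genes tested, 53.2% had both Cpeb4 libraries above both IgG libraries and 22.7% had both below.

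**Figure D1:**
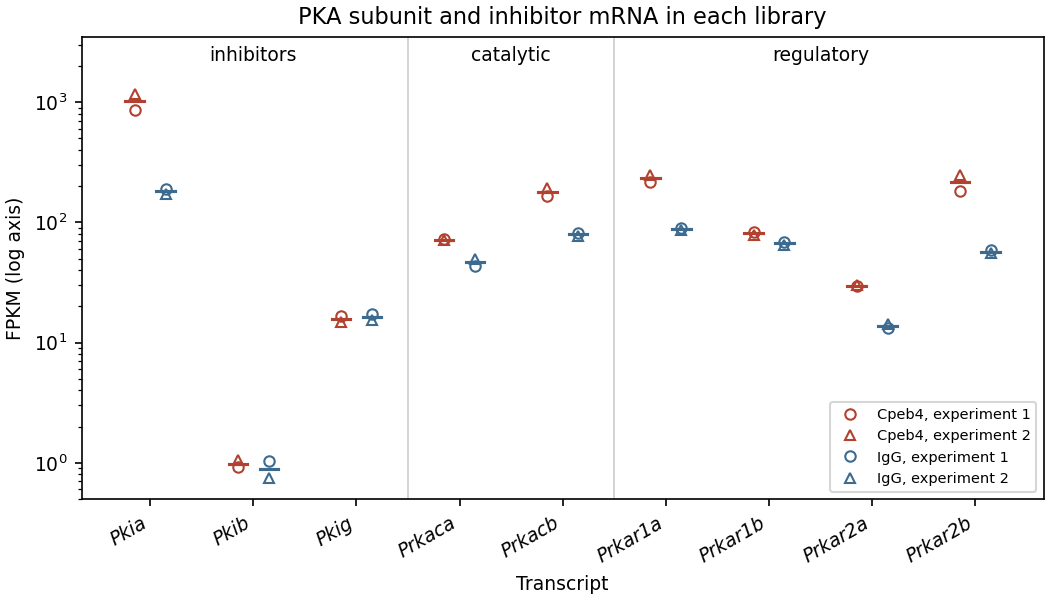
FPKM on a log axis of each PKA inhibitor, catalytic and regulatory transcript in the 4 libraries; circles are experiment 1, triangles experiment 2 and bars the mean of each antibody. Pkia, at 868 and 1163 FPKM in the Cpeb4 libraries, is the most abundant member with either antibody, and the points of Pkib and Pkig overlap between antibodies.

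Pkia encodes the alpha form of the inhibitor, the main form in brain (chromosome 3: 7366604 to 7445366; this and the other positions are RefSeq gene spans on GRCm38.p6). It was at 868 FPKM in the Cpeb4 library of experiment 1 and 1163 FPKM in that of experiment 2, against 190 and 172 FPKM with IgG. Both Cpeb4 libraries were far above both IgG libraries, and the Cpeb4 libraries differed from each other more than the IgG libraries did. Its difference, Cpeb4 minus IgG in log2(FPKM + 1), was 2.47 (SE 0.17 from the limma fit across all genes). That was the fifth highest of the 15745 genes on this scale, which compresses the differences of genes of low FPKM. The difference of Pkia was 2.19 in experiment 1 and 2.75 in experiment 2. In the IgG libraries alone its mean level exceeded that of 99.4% of the genes tested. The reads behind it numbered 96349 and 83497 in the Cpeb4 libraries and 19912 and 16868 in IgG.

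Pkig, the gamma form of the inhibitor (chromosome 2: 163658211 to 163726158), was at 16.7 and 14.7 FPKM with Cpeb4 and at 17.2 and 15.5 FPKM with IgG. The libraries of the antibodies interleaved, and experiment 2 was the lower of the 2 with either antibody. Its difference was -0.06 (SE 0.12). Pkib, the beta form (chromosome 10: 57631981 to 57741112), was barely detected, at 0.919 and 1.05 FPKM with Cpeb4 and at 1.04 and 0.749 FPKM with IgG, on 108 to 161 reads per library. It just met the level required for testing, which was 1 FPKM or more in 2 or more of the libraries. Its difference of 0.07 (SE 0.18) had opposite signs in the experiments (-0.09 and 0.23). The high inhibitor level in the Cpeb4 immunoprecipitates was thus the level of Pkia alone. Within a library, which no scaling alters, Pkia was 52.1 and 79.1 times the FPKM of Pkig with Cpeb4 and 11.0 and 11.1 times with IgG.

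Prkacb, the beta catalytic subunit (chromosome 3: 146729579 to 146812946), was at 166 and 194 FPKM with Cpeb4 and at 81.3 and 77.4 FPKM with IgG, a difference of 1.17 (SE 0.14). Prkaca, the alpha catalytic subunit (chromosome 8: 83972978 to 83996444), was at 72.1 and 70.8 FPKM with Cpeb4 and at 43.2 and 49.7 FPKM with IgG, a difference of 0.61 (SE 0.13). For both, the groups did not overlap. Prkacb was the more abundant catalytic transcript in every library. The ratio of Prkacb to Prkaca was 2.31 and 2.74 in the Cpeb4 libraries against 1.88 and 1.56 in IgG, so Prkacb took the larger part of the catalytic mRNA in the Cpeb4 immunoprecipitates. The fold by which this ratio exceeded IgG was small in experiment 1 (0.29 on the log2 scale) and larger in experiment 2 (0.81).

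Of the type I regulatory subunits, Prkar1a is the widely expressed form and Prkar1b the form of neural tissue. Prkar1a (chromosome 11: 109649023 to 109669663) was at 217 and 248 FPKM with Cpeb4 and at 90.4 and 85.6 FPKM with IgG, a difference of 1.39 (SE 0.14). Prkar1b (chromosome 5: 139017304 to 139150703) was at 83.8 and 77.8 FPKM with Cpeb4 and at 68.4 and 65.0 FPKM with IgG, a difference of 0.27 (SE 0.13) that was similar in both experiments (0.29 and 0.26). Its groups did not overlap, but its difference was close to the median of all genes tested, 0.19. The ratio of Prkar1a to Prkar1b was 1.32 in both IgG libraries and 2.59 and 3.18 in the Cpeb4 libraries. The gene span of Prkar1b overlaps that of Dnaaf5, which was at 8.25 to 10.8 FPKM, and SMART-Seq v4 cDNA keeps no strand information, so reads in the shared part could belong to either.

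Of the type II regulatory subunits, Prkar2b is the form enriched in brain and fat and Prkar2a is widely expressed. Prkar2b (chromosome 12: 31958450 to 32061648) was at 182 and 250 FPKM with Cpeb4 and at 58.4 and 55.1 FPKM with IgG. Its difference of 1.89 (SE 0.15) ranked 82 among the genes tested and was 1.62 in experiment 1 and 2.16 in experiment 2. Prkar2a (chromosome 9: 108692143 to 108750444) was at 29.3 and 30.1 FPKM with Cpeb4 and at 13.3 and 14.4 FPKM with IgG, a difference of 1.05 (SE 0.12). Neither overlapped between antibodies, and Prkar2a had the closest Cpeb4 libraries of the regulatory subunits. The ratio of Prkar2b to Prkar2a was 6.21 and 8.31 with Cpeb4 and 4.41 and 3.83 with IgG.

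The order of the transcripts by level, per length, differed between antibodies in its middle part. In IgG it ran Pkia, Prkar1a, Prkacb, Prkar1b, Prkar2b, Prkaca, Pkig, Prkar2a and Pkib, and no neighbours in that order overlapped in FPKM between the IgG libraries. In the Cpeb4 libraries Prkar2b moved from the fifth place to the third, above Prkacb and Prkar1b, and Prkar2a passed Pkig. Within libraries, Prkar2b was above Prkacb in both Cpeb4 libraries and below it in both IgG libraries. Prkar2b was below Prkar1a in the Cpeb4 library of experiment 1 (182 against 217 FPKM) and level with it in that of experiment 2 (250 against 248 FPKM), so the order of these neighbours did not hold in both.

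**Figure D2:**
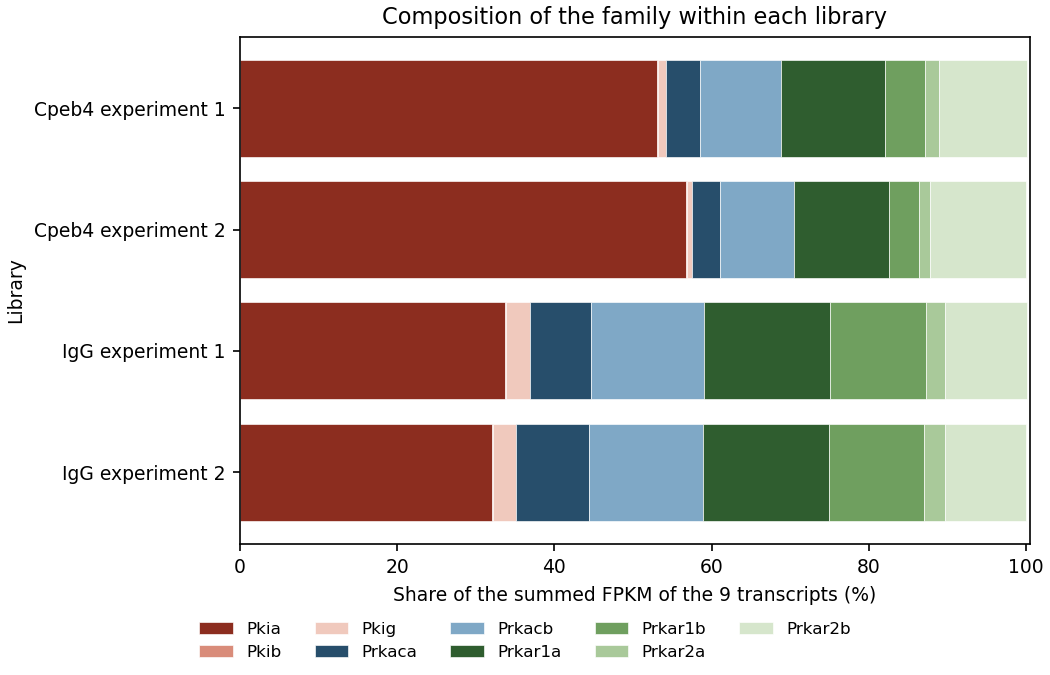
Share (%) of the summed FPKM of the 9 PKA transcripts taken by each, one bar per library; reds are inhibitors, blues catalytic and greens regulatory subunits. Pkia takes 53.1% and 56.8% of the bars of the Cpeb4 libraries and 33.7% and 32.1% of those of IgG.

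As a share of the summed FPKM of the 9 transcripts, Pkia was at 53.1% and 56.8% in the Cpeb4 libraries and at 33.7% and 32.1% in IgG. Catalytic subunits took 14.6% and 12.9% with Cpeb4 against 22.1% and 23.7% with IgG, and regulatory subunits 31.3% and 29.5% against 40.9% and 41.1%. These shares must sum to the whole, so a lower share does not mean a lower FPKM. Summed, the catalytic transcripts were at 238 and 265 FPKM with Cpeb4 and 125 and 127 FPKM with IgG, and the regulatory ones at 512 and 605 against 230 and 220 FPKM. With Pkia left out of the sum, regulatory subunits took 66.7% and 68.3% with Cpeb4 and 61.7% and 60.6% with IgG. The catalytic share was still lower with Cpeb4, at 31.0% and 29.9% against 33.4% and 35.0%. Within that sum Prkar2b went from 15.6% and 15.2% in IgG to 23.7% and 28.2% in Cpeb4, and Prkar1b from 18.3% and 17.9% to 10.9% and 8.78%. Pkia stood at 3.64 and 4.40 times the summed catalytic FPKM with Cpeb4 and at 1.52 and 1.35 times with IgG. The type II to type I regulatory ratio was 0.704 and 0.861 with Cpeb4 and 0.451 and 0.461 with IgG. These are levels of mRNA in precipitates and measure neither the proteins nor their activity.

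**Figure D3:**
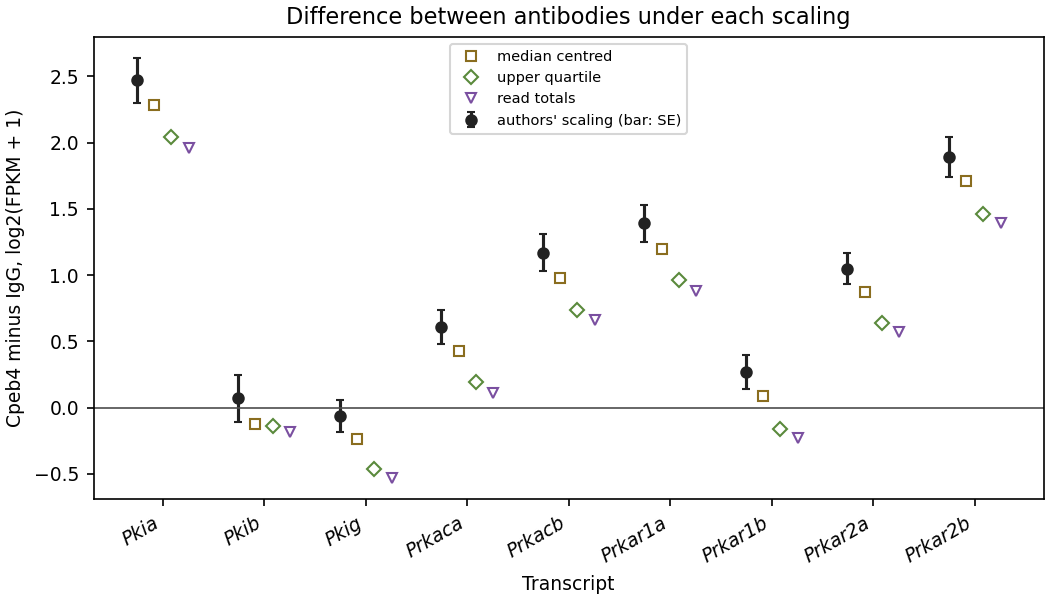
Cpeb4 minus IgG difference in log2(FPKM + 1) of each transcript under the authors' scaling (filled circles, bars are the SE of the limma fit) and under 3 other scalings of the same libraries (open symbols). Each transcript shifts down, Pkib the least (from 0.07 to -0.18 with read totals). Prkar1b goes from 0.27 to -0.23 with read totals, while Pkia stays highest, at 1.96.

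How far above IgG a transcript stood depended on the scaling of the libraries, which moved the median of all genes tested from 0.19 to -0.23 when libraries were scaled to their read totals. With read totals the differences were 1.96 for Pkia, 1.39 for Prkar2b, 0.88 for Prkar1a, 0.66 for Prkacb, 0.57 for Prkar2a and 0.11 for Prkaca. Prkar1b then stood at -0.23, Pkib at -0.18 and Pkig at -0.53. The first 6 stayed above 0 under all 4 scalings, Prkar1b was below 0 with read totals and upper quartile (-0.16), Pkib was below 0 under the 3 scalings other than the authors', and Pkig was below 0 under all 4. The median over the 9 members was 1.05 with the authors' scaling and 0.57 with read totals, each above the median of all genes.

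Gene length went with the differences in some pairs of isoforms and not in others. The length implied by FPKM and reads was 3.61 kb for Pkia and 2.81 kb for Pkig, 4.34 kb for Prkacb and 2.27 kb for Prkaca, and 3.51 kb for Prkar1a and 2.64 kb for Prkar1b, so in these the transcript further above IgG was the longer. Among type II subunits it was the shorter, with Prkar2b at 3.37 kb and Prkar2a at 4.96 kb, and Pkib was the longest of all at 5.32 kb. After removal of the trend of the difference on length and mean level over all genes, Pkia was at 1.81 and Pkig at -0.39, Prkar2b at 1.23 and Prkar2a at 0.48, Prkar1a at 0.70 and Prkar1b at -0.27, and Prkacb at 0.43 and Prkaca at 0.15. The order within each kind of subunit was as before, with each difference lower and that of Prkar1b below 0. Length and level were removed together, and the part of each was not tested.

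The Cpeb4 libraries of the experiments also differed by transcript. From experiment 1 to 2 the Cpeb4 FPKM ratio was 1.37 for Prkar2b, 1.34 for Pkia, 1.17 for Prkacb and 1.14 for Prkar1a, and 1.03 or lower for Prkar2a, Prkaca, Prkar1b and Pkig, while the median over all genes above 1 FPKM in both was 1.01. Pkib had a ratio of 1.14 on few reads. The 4 transcripts furthest above IgG thus had higher Cpeb4 FPKM in experiment 2. Their place rests on a mean that includes experiment 2, so this link is partly built in. In experiment 1 alone the log2 difference of Prkar2a (1.09) was above that of Prkacb (1.02). For Pkia, Prkar2b, Prkar1a and Prkacb the IgG ratio was 0.907 to 0.952. The deposited comparison by the authors, which tests reads and not FPKM, gave log2 fold changes of 2.47 for Pkia, 1.90 for Prkar2b and -0.07 for Pkig in the authors' deposited table.

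The transcripts whose pattern over the 4 libraries was most like that of Pkia were sought among 7988 genes, by Euclidean distance of log2(FPKM + 1) after subtracting each gene's mean. Nearest were Lysmd3 (distance 0.033), the glycosyltransferase gene B3gnt5 (0.089) and the ubiquitin-conjugating enzyme gene Ube2d3 (0.10). Lysmd3 was at 24.5 and 32.7 FPKM with Cpeb4 and 4.66 and 3.99 FPKM with IgG, a far lower level than Pkia. The likeness is on the log2(FPKM + 1) scale, which compresses the differences of genes of low FPKM, and need not hold on FPKM. Nearest to Pkig, the member with the lowest difference, were the glycolipid transfer protein gene Gltp (0.0054), the homeobox gene Pbx4 (0.014) and the nucleotidase gene Entpd6 (0.022), which like Pkig interleaved between antibodies. With only 4 libraries many genes lie close to any pattern.

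The rest of the cyclic AMP pathway was taken from lists made by textbook role, with no PKA subunit or inhibitor in them, and tested with limma over all genes. The lists were chosen with earlier results of these data known. Of 80 listed genes 69 could be tested, and 33 were higher with Cpeb4, 5 lower and 31 not called at a Benjamini-Hochberg adjusted p under 0.05. That is 47.8% higher and 7.25% lower, against 38.8% and 11.6% of all genes tested. The median difference was 0.33 over these genes and 0.19 over all genes tested. With libraries scaled to read totals 14 were higher and 26 lower, against 17.6% and 41.5% of all genes tested. Fits without a library had no block, and took the spread from the complete antibody group, so the lone library of the other was assumed to vary like it. With IgG replicate 2 left out 21 genes were called higher, and with IgG replicate 1 left out 22. The count of lower genes was 11 without Cpeb4 replicate 1, 2 without IgG replicate 1 and 0 without IgG replicate 2 (limma, 2 at an unadjusted p under 0.05). With no filter on low values it was also 0 (limma, 5 at an unadjusted p under 0.05), while limma-voom on the recovered reads called 6 lower.

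**Figure D4:**
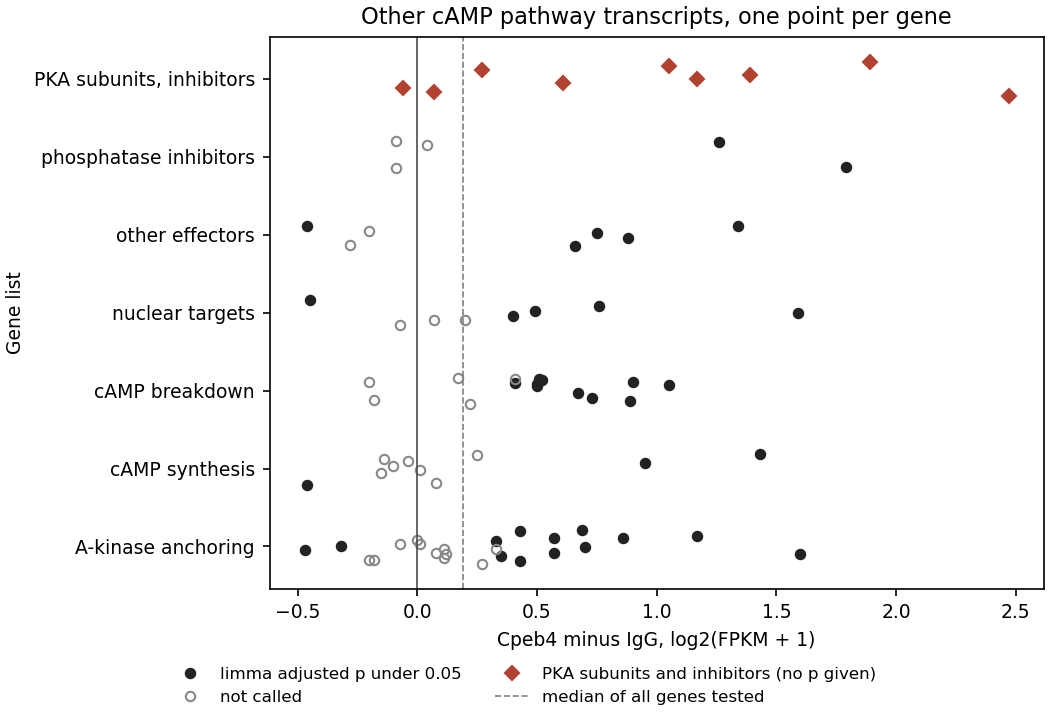
Cpeb4 minus IgG difference in log2(FPKM + 1), one point per gene, for 6 lists of cyclic AMP pathway genes; filled circles passed limma at an adjusted p under 0.05, and diamonds are the PKA subunits and inhibitors. The highest pathway gene outside the kinase, Arpp21, is at 1.79, and the dashed line marks the median of all genes tested, 0.19.

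A-kinase anchoring proteins hold the kinase near its substrates, mostly through type II regulatory subunits. Of 24 tested, 11 were higher, 2 lower and 11 not called, and 3 of the higher ones were called higher under all 4 scalings. With read totals 3 were higher and 9 lower. Beside the counts of this list and the lists below, 38.8% of all genes tested were higher and 11.6% lower. With read totals these shares were 17.6% and 41.5%. Map2, a dendritic microtubule protein that binds type II subunits, was at 335 and 449 FPKM with Cpeb4 and at 126 and 127 FPKM with IgG, a difference of 1.60 (SE 0.15, limma adjusted p = 4.09e-07). Akap11 was higher at 1.17 (SE 0.12, limma adjusted p = 1.36e-06). The nuclear Akap8l was lower at -0.47 (limma adjusted p = 0.00446) and the centrosomal Akap9 at -0.32 (limma adjusted p = 0.0413). The call of Akap8l was lost without IgG replicate 1 (limma adjusted p = 0.078) or IgG replicate 2 (limma adjusted p = 0.103), and that of Akap9 likewise (limma adjusted p = 0.235 and 0.207).

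With the authors' scaling, synthesis and breakdown of cyclic AMP differed in their counts. Of 10 cyclase and stimulatory G protein genes, 2 were higher, 1 lower and 7 not called, and with read totals 2 were higher and 6 lower. Both higher ones were G protein alpha subunits that stimulate cyclases, Gnas at 1.43 (SE 0.13, limma adjusted p = 3.82e-07) and Gnal at 0.95 (SE 0.13, limma adjusted p = 2.32e-05), whose call was lost once the trend on length and level was taken out (limma adjusted p = 0.291). None of the 8 cyclases was called higher, and Adcy6 was lower at -0.46 (limma adjusted p = 0.0191), a call lost without IgG replicate 2 (limma adjusted p = 0.232). Of 15 phosphodiesterases, 10 were higher and 0 lower, of which 3 were called higher under all 4 scalings; with read totals 3 were higher and 2 lower. At an unadjusted p under 0.05 limma gave 0 lower, and limma-voom also called 0 lower. Pde3b was at 1.05 (SE 0.13, limma adjusted p = 7.75e-06) and Pde7a at 0.90 (SE 0.12, limma adjusted p = 1.4e-05). The difference between these lists was not tested.

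Creb1, the nuclear substrate named above, was at 31.9 and 46.4 FPKM with Cpeb4 and at 12.1 FPKM in both IgG libraries. Its difference was 1.59 (SE 0.14, limma adjusted p = 1.93e-07), and it was called higher under all 4 scalings. With read totals 2 nuclear genes were higher and 3 lower. Among the 8 nuclear targets and coactivators, Crem was also higher at 0.76, Ep300 at 0.49 and Atf1 at 0.40 (limma adjusted p = 0.000202, 0.00351 and 0.0206), while the coactivator Crtc2 was lower at -0.45 (limma adjusted p = 0.0101). The Ep300 call was lost with read totals, upper quartile, median centring and the trend removed (limma adjusted p = 0.885, 0.545, 0.0517 and 0.982). Without IgG replicate 1 the Ep300 difference was 0.41. The Atf1 call was lost under the same 4 settings (limma adjusted p = 0.743, 0.957, 0.198 and 0.317), and its difference was -0.06 with read totals. Without Cpeb4 replicate 2, IgG replicate 1 or IgG replicate 2 the Atf1 difference was 0.26, 0.45 and 0.34. The Crtc2 call was lost without IgG replicate 2 (limma adjusted p = 0.193).

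Of 7 further effectors, 4 were higher, 1 lower and 2 not called, and with read totals 2 were higher and 3 lower. Prkx, a kinase closely related to the catalytic subunits, was at 27.7 and 31.1 FPKM with Cpeb4 and 11.4 and 10.5 FPKM with IgG, a difference of 1.34 (SE 0.13, limma adjusted p = 3.91e-07). Rapgef4 (Epac2), which cyclic AMP activates without the kinase, was at 0.75 (limma adjusted p = 0.000149), a call lost with read totals (limma adjusted p = 0.149) and with the trend removed (limma adjusted p = 0.817). Its relative Rapgef3 (Epac1) was lower at -0.46 (limma adjusted p = 0.00904), a call lost without IgG replicate 1 or IgG replicate 2 (limma adjusted p = 0.0779 and 0.109). The channel Hcn4 was higher at 0.66 (limma adjusted p = 0.00142), a call lost with read totals (limma adjusted p = 0.0987).

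Of 5 phosphoproteins regulated by the kinase, most of them phosphatase inhibitors, 2 were higher and 3 not called, and with read totals 2 were higher and 3 lower. Arpp21, which is not a phosphatase inhibitor, was at 382 and 434 FPKM with Cpeb4 and 119 and 116 FPKM with IgG, a difference of 1.79 (SE 0.14, limma adjusted p = 1.09e-07). Arpp19 was higher at 1.26 (SE 0.14, limma adjusted p = 1.69e-06), while its close relative Ensa was at 0.04 and the striatal phosphatase inhibitor Ppp1r1b (DARPP-32) at -0.09, both not called; with read totals both were called lower, at -0.45 and -0.59 (limma adjusted p = 0.00449 and 0.000433).

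Several PKA and cyclic AMP genes are abundant in striatal neurons, which border the V-SVZ, so markers of these and of other cells were examined, against 38.8% of all genes tested being higher and 11.6% lower. Of 6 striatal neuron markers, 4 were higher and 0 lower with Cpeb4, and none was at 0 in the libraries. Their summed level was 382 and 397 FPKM with Cpeb4 and 285 and 278 FPKM with IgG. Of 10 V-SVZ markers, 7 were higher and 1 lower, with sums of 335 and 351 against 205 and 202 FPKM. With read totals 2 striatal markers were higher and 2 lower, and 4 V-SVZ markers were higher and 3 lower. Oligodendrocyte lineage markers had the same counts as the striatal ones, 4 of 6 higher and 0 lower, with sums of 447 and 420 against 306 and 293 FPKM, and 0 were higher or lower with read totals. Markers of other cells were mostly lower or not called: 2 of 4 ependymal markers were lower, 3 of 5 choroid plexus and blood markers and 1 of 4 endothelial markers, with 0 higher in each. Of 5 microglia markers 1 was higher (P2ry12 at 1.23, limma adjusted p = 1.6e-06) and 2 lower (Cx3cr1 at -1.02, limma adjusted p = 3.87e-06, and Tmem119 at -0.32, limma adjusted p = 0.0497). Their part in the PKA values was not tested. These are differences between precipitates of bulk lysates, with both antibodies used in each experiment. They measure neither the number of cells of a type nor the RNA per cell.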

How the data were processed

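Each of 2 experiments gave 1 Cpeb4 and 1 IgG library. Per the labels' protocols, the MAGNA RIP kit, SMART-Seq v4 cDNA and Nextera XT library kits were used. Tools listed by the submitters' processing notes, without roles, are STAR 2.6.0c, HTSeq 0.6.1p2, DESeq2 1.26.0, Trim Galore 0.5.0 and FastQC 0.11.5, with the mm10 build. The deposited table holds FPKM from the authors. It also holds the authors' own comparison: a mean signal, log2 fold changes, their errors, a score and p-values. Combining FPKM with that mean returned whole reads (tolerance 0.01 read) for 100% of values above 0.

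Genes reaching 1 FPKM in 2 or more libraries entered a limma 3.58.1 fit (R 4.3.3, trended prior) of log2(FPKM + 1), with experiment as a block because the titles number experiments across antibodies. Tests were two-sided. The deviations of same-numbered libraries correlated at 0.0024. Replicates differed beyond counting noise (chi-square per degree of freedom 20.2 for Cpeb4, 4.28 for IgG). On this scale, differences of genes with few reads are compressed.

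Members and lists were chosen with earlier results of these data known. The named genes are the members, the 3 genes nearest by pattern and, in each list, the 2 called genes with the largest positive and the 2 with the largest negative differences, where mean log2(FPKM + 1) reached 3. Adcy6, Rapgef3, Crem, Atf1, Hcn4, Ensa, Ppp1r1b, P2ry12, Cx3cr1 and Tmem119 were named after their values were seen, and some list members are not reported here. Other scalings, filters, a pseudocount of 0.1, limma-voom, a loess trend and leaving out libraries were alternatives.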

Additional observations from a re-analysis of the deposited data

How the results depend on the processing

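With 2 libraries per antibody and 1 residual degree of freedom, the spread is taken mostly from all genes together, and Pkib is limited by its few reads. Without the replicate block, 6007 of all genes were higher and 1714 lower (6106 and 1822 with it), and 34 and 5 of the pathway genes (33 and 5). Both antibodies were used in each experiment, so the block alters the spread and cannot alter a difference or its direction. The members' median was therefore 1.05 with and without it. The cause of the following shifts was not tested. Over all genes, higher and lower calls were 2768 and 6534 with read totals, 3240 and 5856 with upper quartile, 3742 and 3972 with the length and level trend removed, and 3915 and 875 with no filter; lower calls were 3429 with median centring. Leaving out single libraries, in fits with no block whose spread came from the complete antibody group, gave 3977 to 6534 higher and 867 to 2497 lower. Of pathway genes, 14 and 26 were higher and lower with read totals, 19 and 25 with upper quartile, and 16 and 24 with the trend removed; 12 were lower with median centring, and 0 with no filter (limma, 5 at an unadjusted p under 0.05; limma-voom called 6). Leaving out single libraries gave 21 to 34 higher and 0 to 11 lower.

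The median difference of the inhibitors, 0.07, which is the value of Pkib, was -0.18 with read totals, -0.14 with upper quartile and -0.12 with median centring, and -0.04 to 0.18 without single libraries. For catalytic subunits it was 0.89, and 0.39, 0.46 and 0.70 with these scalings, 0.29 with the trend removed and 0.84 to 0.94 without single libraries. For regulatory subunits it was 1.22, and 0.73, 0.80, 1.03 and 0.59, with 1.16 to 1.28 without single libraries. Over all members it was 1.05, and 0.57, 0.64, 0.87 and 0.43, 1.10 with a pseudocount of 0.1 or limma-voom, and 1.0 to 1.11 without single libraries. Pkib fails the filter of 1 FPKM in all 4 libraries, and over the 8 members left the median was 1.11, and 1.21 for the inhibitors Pkia and Pkig. Signs reversed for Pkib (as above), for Prkar1b (-0.23 with read totals, -0.16 with upper quartile, -0.27 with the trend removed) and for Pkig without Cpeb4 replicate 2 (0.03) or IgG replicate 1 (0.01). The inhibitors' share of the summed FPKM was 19.8 percentage points higher with Cpeb4 (18.1 to 21.5 without single libraries) and -2.64 with Pkia left out. The catalytic share differed by -9.20 points (-10.0 to -8.37; -3.73 without Pkia) and the regulatory share by -10.6 (-11.5 to -9.72; 6.37 without Pkia).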
